A study of Mus musculus with 12 samples.

Results

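The 10 genes Vim, Lgals1, Lgals3, Actg1, Tagln2, Tmsb10, Tuba1a, Tubb6, S100a6 and S100a11 encode cytoskeletal proteins, their regulators and calcium- or sugar-binding partners. They were taken as a list by their gene symbols, each represented by its brightest probe set, and all 10 were among the 18820 genes measured. RNA was measured on 12 single-colour whole-transcript arrays from 6 male C57BL/6 mice aged 7 to 8 weeks on standard chow, and each mouse gave both primary hepatocytes and whole liver. The 4 groups of 3 arrays were JNKΔhepa hepatocytes, WT hepatocytes, JNKΔhepa liver and WT liver. JNKΔhepa mice lack Jnk1 in cells that express Albf-Cre, a Cre recombinase under the albumin promoter and alpha-fetoprotein enhancer, and carry Jnk2-/- in every cell of the body. WT mice were Jnk1f/fJnk2+/+ littermates, so the floxed Jnk1 allele was present in both genotypes. Because the loss of Jnk2 was not limited to hepatocytes, the genotypes also differed in the non-parenchymal cells. How the hepatocytes were isolated, and whether they were plated or cultured, is not given in the sources used here.

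Hepatocytes removed from the liver and kept in culture are known to lose epithelial polarity, to build actin stress fibres and to switch on vimentin and other cytoskeletal genes, a process called dedifferentiation. The same genes are strongly expressed by cells that remain in many hepatocyte preparations: macrophages, sinusoidal endothelial cells and stellate cells. JNK kinases phosphorylate the transcription factor Jun, part of the AP-1 complex. Stress during isolation is known to induce Jun, Fos and other immediate early genes. The comparison of the 4 groups therefore asked whether the list moved with stress genes or with markers of non-parenchymal cells.

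The deleted gene Mapk9 (Jnk2) read 2.29 to 2.62 in JNKΔhepa hepatocytes and 7.74 to 8.10 in WT hepatocytes, and 2.33 to 3.02 in JNKΔhepa liver and 8.59 to 8.69 in WT liver, all as deposited log2 values. Mapk8 (Jnk1), deleted in hepatocytes per the labels, differed far less, with 4.95 to 5.01 in JNKΔhepa hepatocytes and 5.51 to 5.66 in WT hepatocytes (log2 difference -0.61, limma adjusted p = 0.00183), and 5.93 to 6.07 in JNKΔhepa liver and 6.37 to 6.40 in WT liver (-0.40, limma adjusted p = 0.0270). It still read above the array median on every array, and whether its probe set covers the deleted part is not given in what was analysed here, so it does not check the deletion. Of a hepatocyte identity list (Alb, Ttr, Hnf4a and others), 14 genes were measured, and none of them read below the array median on all arrays of any group. The array medians over all probe sets were 3.22 to 3.28 in hepatocytes and 4.09 to 4.12 in liver, so the tissues may have been normalised separately. Levels set across the tissues depend on this, so they are given both as deposited and after quantile normalisation of the 12 arrays together, which gives every array the same distribution of values. The genotype comparisons lie within a tissue and used the deposited values.

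None of the 10 genes passed the test as higher in isolated hepatocytes. After quantile normalisation together, 7 of the 10 genes were lower in hepatocytes than in liver and 0 were higher (limma on all 12 arrays, Benjamini-Hochberg adjusted p under 0.05), against 22.0% of all genes lower and 23.1% higher. With each array centred on its median instead, which moved the median difference of all genes to 0.27, the calls of Lgals1 and S100a6 ended and 5 of 10 were lower. The share of all genes called with this centring is not given here, so this count has no such comparison. As deposited, all 10 were lower, against 91.5% of all genes lower and 0.776% higher, so that count says little about these genes. By genotype, 6 of 10 were lower after quantile normalisation in JNKΔhepa mice (15.6% of all genes lower, 14.3% higher) and 5 of 10 in WT mice (14.8% lower, 13.6% higher). As deposited, 10 of 10 were lower in JNKΔhepa mice (85.9% of all genes lower, 0.616% higher) and in WT mice (85.6% lower, 0.600% higher). Vim, Tagln2 and S100a11 had the largest differences among the 10, and Actg1, Tuba1a and Tubb6 did not pass the test after quantile normalisation. The deposited median difference over all genes was -0.58 on the log2 scale.

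**Figure D1:**
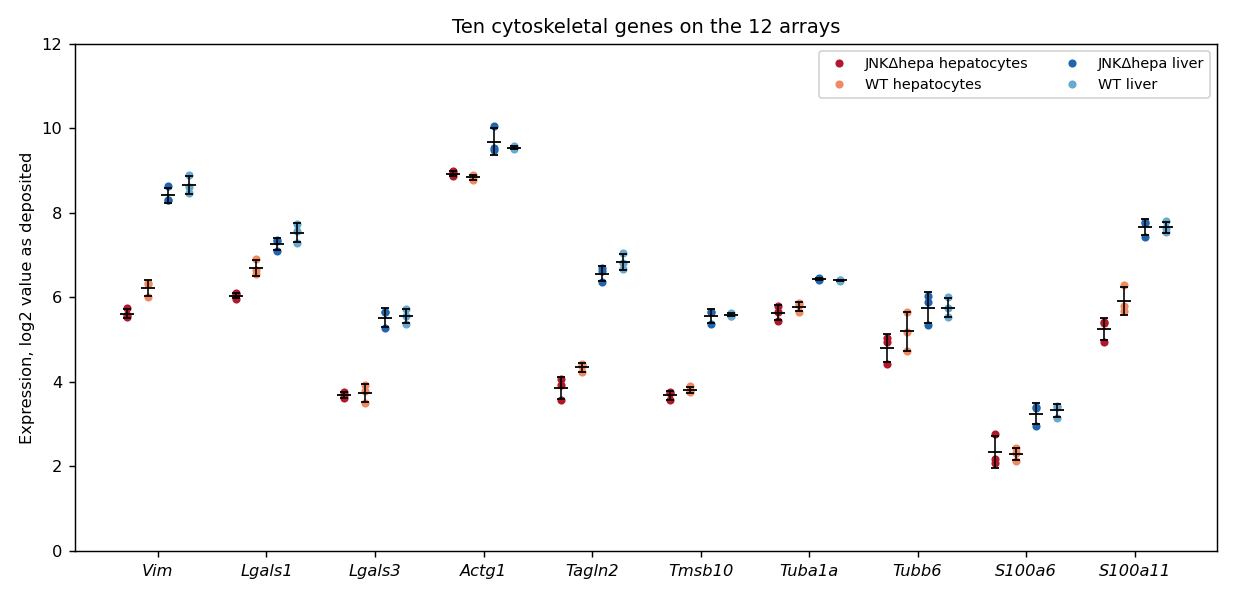
Deposited log2 values of the 10 genes on the 12 arrays. Within each gene the groups run from left to right as JNKΔhepa hepatocytes, WT hepatocytes, JNKΔhepa liver and WT liver. Points are arrays and bars are the mean and SD (n = 3). Vim sits between 5.53 and 6.34 on the hepatocyte arrays and between 8.30 and 8.89 on the liver arrays, a gap that contains any difference in scaling between the tissues.

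Vim encodes vimentin, the intermediate filament protein of mesenchymal, endothelial and blood-derived cells. Its deposited log2 values were 5.74, 5.58 and 5.53 in JNKΔhepa hepatocytes, 6.32, 6.02 and 6.34 in WT hepatocytes, 8.63, 8.30 and 8.31 in JNKΔhepa liver, and 8.60, 8.48 and 8.89 in WT liver. Every hepatocyte array read below every liver array, and every JNKΔhepa hepatocyte array below every WT hepatocyte array, while the liver genotypes overlapped. As deposited, 86.2% of all genes in JNKΔhepa mice and 84.6% in WT mice were lower in hepatocytes without overlap. The separation of the tissues therefore says little about Vim. After quantile normalisation Vim was lower in hepatocytes than in liver by a log2 difference of -1.97 (SE 0.0938), which is 3.91-fold (limma adjusted p = 1.77e-08).

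Tagln2 encodes transgelin-2, an actin-bundling protein related to the smooth muscle protein transgelin. Its deposited log2 values were 4.07, 3.93 and 3.58 in JNKΔhepa hepatocytes, 4.38, 4.23 and 4.43 in WT hepatocytes, 6.64, 6.70 and 6.36 in JNKΔhepa liver, and 6.82, 6.66 and 7.05 in WT liver. The tissues did not overlap, as for most genes as deposited. The hepatocyte genotypes did not overlap and the liver genotypes did. The difference between hepatocytes and liver after quantile normalisation was -1.83 (SE 0.101) on the log2 scale, or 3.55-fold lower (limma adjusted p = 4.77e-08). Tagln2 was the gene whose centred profile over the 12 deposited arrays lay nearest to that of Vim, with a root mean square difference of 0.127 log2 units among 9298 genes that read above the median on every array. Ccdc80 (0.143) and Tmsb4x (0.147), which encodes another thymosin, followed.

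Among the other actin regulators, Tmsb10, which encodes a thymosin that binds actin monomers, was lower in hepatocytes by a quantile-normalised log2 difference of -0.996 (SE 0.0726, limma adjusted p = 4.29e-07). Its deposited means were 3.69 ± 0.10 in JNKΔhepa hepatocytes, 3.82 ± 0.07 in WT hepatocytes, 5.56 ± 0.17 in JNKΔhepa liver and 5.59 ± 0.04 in WT liver (SD, n = 3 each). Actg1 encodes cytoplasmic gamma-actin, a main component of the cortical actin network. Its deposited means were 8.93 ± 0.07 in JNKΔhepa hepatocytes, 8.84 ± 0.05 in WT hepatocytes, 9.69 ± 0.32 in JNKΔhepa liver and 9.55 ± 0.04 in WT liver (SD, n = 3 each). After quantile normalisation its difference between hepatocytes and liver was -0.21 (95% interval -0.40 to -0.01, limma adjusted p = 0.0760). The array JNKΔhepa liver 2 stood apart for Actg1 at 10.06, and all 4 probe sets of the gene were highest there. Actin genes are near-identical in sequence, so the assignment of this signal to Actg1 is uncertain.

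Neither tubulin gene passed the test between hepatocytes and liver after quantile normalisation. Tuba1a encodes an alpha-tubulin and Tubb6 a beta-tubulin, the subunits of microtubules. Their log2 differences between hepatocytes and liver after quantile normalisation were 0.02 for Tuba1a (95% interval -0.14 to 0.17, limma adjusted p = 0.875) and 0.01 for Tubb6 (95% interval -0.36 to 0.38, limma adjusted p = 0.963). As deposited, Tuba1a read 5.45 to 5.80 in JNKΔhepa hepatocytes, 5.66 to 5.88 in WT hepatocytes, 6.42 to 6.47 in JNKΔhepa liver and 6.39 to 6.42 in WT liver. Tubb6 varied more, with 4.43 to 5.05 in JNKΔhepa hepatocytes, 4.74 to 5.65 in WT hepatocytes, 5.35 to 6.04 in JNKΔhepa liver and 5.54 to 6.00 in WT liver. Its deposited call in WT mice was lost with the mouse as a block (limma adjusted p = 0.0556) and without WT hepatocytes 1 (0.0755) or 3 (0.197) or WT liver 2 (0.0693) or 3 (0.130), with a log2 difference of -0.57 over all arrays and -0.34 without WT hepatocytes 3. Alpha-tubulin genes are also near-identical, and 2 further probe sets that the annotation shares between Tuba1a and its copies were not used, so its assignment is uncertain too.

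The galectins bind beta-galactosides at the cell surface and inside the cell. Lgals3 (galectin-3), a product of macrophages and biliary cells, had quantile-normalised values that were lower in hepatocytes by -0.9996 on the log2 scale (SE 0.0940, limma adjusted p = 3.62e-06). Its deposited values were 3.62 to 3.76 in JNKΔhepa hepatocytes, 3.498 to 3.93 in WT hepatocytes, 5.27 to 5.65 in JNKΔhepa liver and 5.38 to 5.73 in WT liver. Lgals1 (galectin-1), typical of stromal and endothelial cells, differed less between the tissues, by -0.35 (SE 0.0917, limma adjusted p = 0.00836), and did not pass with each array centred on its median (-0.17, limma adjusted p = 0.115). Split by genotype, this difference was -0.52 in JNKΔhepa mice (limma adjusted p = 0.00923) and -0.17 in WT mice (limma adjusted p = 0.351), and the genotypes were not shown to differ in it (limma adjusted p of the interaction = 0.684 as deposited).

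S100 proteins bind calcium and, in several cases, annexins and the actin cytoskeleton. S100a11 had deposited log2 values of 4.95, 5.42 and 5.39 in JNKΔhepa hepatocytes, 6.30, 5.67 and 5.79 in WT hepatocytes, 7.75, 7.80 and 7.44 in JNKΔhepa liver, and 7.64, 7.55 and 7.80 in WT liver. The tissues did not overlap, as for most genes as deposited, and neither did the hepatocyte genotypes. Its quantile-normalised difference between hepatocytes and liver was -1.38 (SE 0.120, 2.61-fold lower, limma adjusted p = 1.85e-06). S100a6, which encodes calcyclin, read below the array median on all 12 arrays, so the sizes of its differences are not exact. It passed the test after quantile normalisation at -0.34 (limma adjusted p = 0.0482), in neither genotype alone, and not with each array centred on its median (-0.12, limma adjusted p = 0.40).

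**Figure D2:**
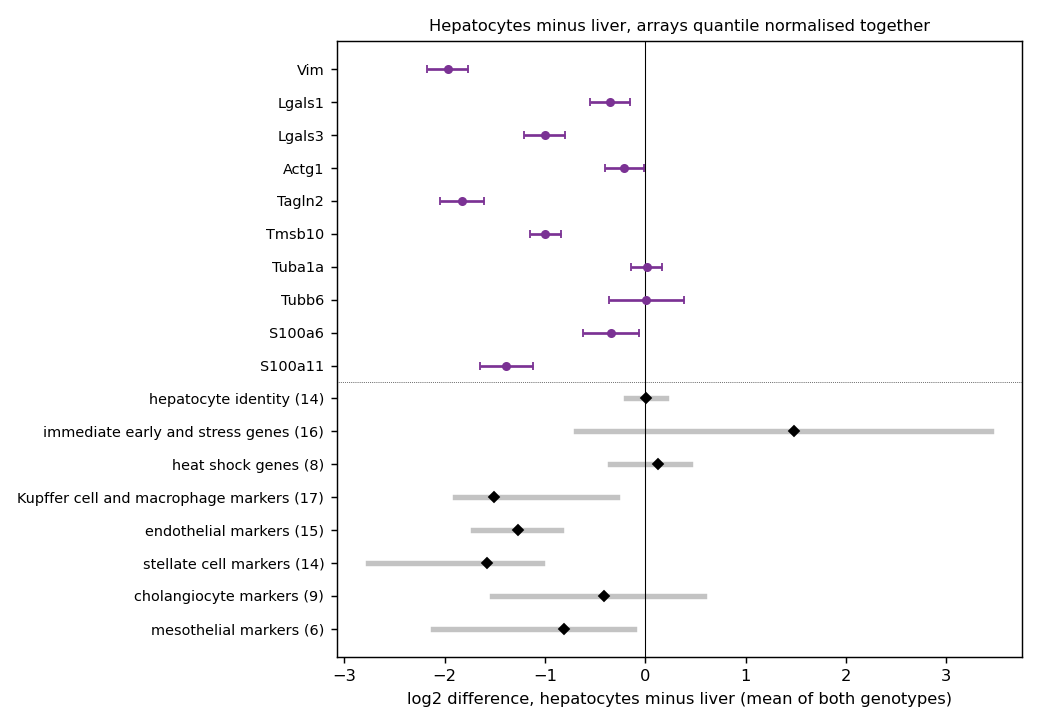
Log2 differences, hepatocytes minus liver, averaged over the genotypes after quantile normalisation of the 12 arrays together. Coloured points are the 10 genes with 95% intervals, black diamonds are list medians and grey bars run from the lowest to the highest gene of each list, with the number of measured genes in brackets. Vim at -1.97 lies below every Kupffer cell and endothelial marker and Tagln2 at -1.83 below every endothelial marker, both within the range of the stellate cell markers, and Actg1, Tuba1a and Tubb6 lie near 0.

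The promoters of 3 genes are shown because the list holds genes that differed in size of response and because AP-1 and serum response factor are known regulators of cytoskeletal genes. They come from RefSeq (GRCm38.p6), 5′ to 3′ on the strand of the gene, and cover the 250 bases before the annotated start site. Capitals mark a TATAAA box in Vim (chr2:13574061-13574310, plus strand), AP-1 sites in S100a11 (chr3:93520246-93520495, plus strand) and a CArG box, the binding motif of serum response factor, in Actg1 (chr11:120348496-120348745, minus strand).
Vim: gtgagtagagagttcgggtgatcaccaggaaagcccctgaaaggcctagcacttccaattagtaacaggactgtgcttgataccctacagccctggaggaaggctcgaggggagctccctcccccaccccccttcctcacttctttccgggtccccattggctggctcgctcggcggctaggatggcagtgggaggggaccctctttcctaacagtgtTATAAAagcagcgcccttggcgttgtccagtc
S100a11: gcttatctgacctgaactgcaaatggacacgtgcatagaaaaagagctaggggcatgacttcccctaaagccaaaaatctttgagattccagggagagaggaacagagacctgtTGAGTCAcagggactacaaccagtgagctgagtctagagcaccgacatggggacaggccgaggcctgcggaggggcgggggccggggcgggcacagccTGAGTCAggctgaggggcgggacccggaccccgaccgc
Actg1: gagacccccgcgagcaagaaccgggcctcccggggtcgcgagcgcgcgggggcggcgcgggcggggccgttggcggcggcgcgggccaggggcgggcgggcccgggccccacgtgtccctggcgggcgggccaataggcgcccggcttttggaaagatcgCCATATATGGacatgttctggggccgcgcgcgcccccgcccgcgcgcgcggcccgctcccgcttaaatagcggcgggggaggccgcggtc
RefSeq promoter windows, from 250 bases before to 50 after the start, were searched on both strands for 8 of the 10 genes. No window of Lgals1 or Tubb6 was searched, so the motif counts say nothing about these genes. The AP-1 motif TGANTCA occurred in S100a11 alone among these, at 2 places that begin 136 and 38 bases before the start, and in 7.81% of all 32851 promoters. A CArG box occurred in Actg1 alone and in 1.63% of all promoters. TATAAA occurred in Vim alone and in 13.6% of all promoters. GGGCGG occurred in 8 of the 10 windows of these genes, which belong to 6 of the 8 genes, and in 35.7% of all promoters. The motifs in capitals overlapped no GGGCGG. These matches describe letters in the window, not binding.

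Most markers of non-parenchymal cells were lower in hepatocytes than in liver, and most immediate early and stress genes were higher. After quantile normalisation, 22.0% of all genes were lower and 23.1% higher. Lower calls made up 16 of 17 Kupffer cell and macrophage markers, 15 of 15 endothelial markers and 14 of 14 stellate cell markers. The median log2 differences of these lists were -1.504, -1.27 and -1.58. Examples were Vsig4 (-1.90, limma adjusted p = 1.63e-06), a complement receptor of Kupffer cells, Stab2 (-1.29, limma adjusted p = 4.03e-08), an endothelial scavenger receptor, and Lrat (-2.00, limma adjusted p = 2.33e-08), the retinol-esterifying enzyme of stellate cells. The 10 genes of the list had a median of -0.67, from -1.97 to 0.02, and the hepatocyte identity list had a median of 0.00378 with 3 of 14 genes higher and 1 lower. Lower calls also made up 6 of 9 cholangiocyte markers (1 higher), 5 of 6 mesothelial markers, 9 of 11 lymphocyte markers (1 higher), 6 of 8 neutrophil and monocyte markers and 1 of 2 erythroid markers (1 higher). In bulk samples, fewer cells of a type and less RNA per cell cannot be told apart.

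Of 16 immediate early and stress genes, 12 were higher in hepatocytes and 3 lower after quantile normalisation, against 23.1% and 22.0% of all genes. The median log2 difference of these 16 genes was 1.49. Jun (2.72, limma adjusted p = 4.22e-09), a subunit of AP-1, Btg2 (2.16, limma adjusted p = 1.92e-08), an antiproliferative gene, and Zfp36 (1.504, limma adjusted p = 1.42e-07), an mRNA-decay factor, had the smallest p of these. As deposited, 11 were higher and 5 lower, against 0.776% of all genes higher and 91.5% lower. Of 8 heat shock genes, 2 were higher and 1 lower, with a median of 0.13. Fos, Fosb, Egr2 and Nr4a1 read below the array median on all liver arrays, so the sizes of their differences are not exact. After quantile normalisation, 7 of 10 cytoskeletal genes were lower in hepatocytes and 12 of 16 immediate early and stress genes were higher. The part of stress in the cytoskeletal genes was not tested.

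Most macrophage, endothelial and stellate cell markers still read above the array median on some hepatocyte arrays. Summed over 17 Kupffer cell and macrophage markers, the linear deposited signal was 599.0 to 933.1 in JNKΔhepa hepatocytes, 921.4 to 1572.4 in WT hepatocytes, 4146.2 to 4851.9 in JNKΔhepa liver and 3990.0 to 5728.8 in WT liver. Over 15 endothelial markers the sums were 1297.6 to 1859.9 in JNKΔhepa hepatocytes, 1720.0 to 2263.1 in WT hepatocytes, 5728.9 to 6285.8 in JNKΔhepa liver and 5199.3 to 6082.8 in WT liver. Over 14 stellate cell markers they were 418.1 to 563.6 in JNKΔhepa hepatocytes, 601.5 to 771.8 in WT hepatocytes, 2981.2 to 3319.1 in JNKΔhepa liver and 3452.9 to 3587.1 in WT liver. These sums were not quantile normalised and contain any difference in scaling between the tissues. No endothelial marker read below the array median on all arrays of a hepatocyte group. Among the macrophage markers, Marco and Aif1 did so in JNKΔhepa hepatocytes and Aif1 in WT hepatocytes. The genes Hand2, Des and Acta2 of stellate cells read below the median on all 6 hepatocyte arrays. So did 8 of 8 neutrophil and monocyte, 6 of 6 mesothelial, 10 of 11 lymphocyte, 7 of 9 cholangiocyte and 1 of 2 erythroid markers.

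After quantile normalisation, other members of these gene families, none of them in the list of 10, were mixed between hepatocytes and liver. Of all genes, 22.0% were lower and 23.1% higher, so calls in both directions were common. Of 25 actin-binding and serum response factor target genes, 11 were lower and 3 higher. Examples of the lower genes were Flna (filamin A, -1.85, limma adjusted p = 6.55e-09) and Myl9 (a myosin light chain, -2.00, limma adjusted p = 1.81e-08). Of 9 actin family genes, 3 were lower and 1 higher, and smooth muscle actin Acta2, also a stellate cell marker, differed by -1.91 (limma adjusted p = 8.21e-07). Of 10 tubulin genes, 2 were lower and 2 higher, with Tuba8 at -1.27 (limma adjusted p = 0.000128) and Tubb2a at 1.26 (limma adjusted p = 0.00181). Of 13 intermediate filament genes, 4 were lower and 3 higher, with Krt19, a bile duct keratin, at -1.53 (limma adjusted p = 1.07e-07). The S100 family had 4 of 12 lower and 5 higher, and the galectins 1 of 6 lower and 3 higher, among them Lgals9 at 0.35 (limma adjusted p = 0.000305). As deposited, 8 of the 12 S100 genes and 4 of the 6 galectins were lower and 0 higher, against 91.5% of all genes lower. In every group, 8 S100 genes and 3 galectins read below the array median on all arrays. The sizes of their differences are therefore not exact. The same holds for Myl9, Acta2 and Krt19, which read below the array median on every hepatocyte array.

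In JNKΔhepa hepatocytes, Lgals1 was lower than in WT hepatocytes and was the only one of the 10 genes past the threshold. Its deposited log2 values were 5.97, 6.10 and 6.07 in JNKΔhepa hepatocytes and 6.91, 6.65 and 6.55 in WT hepatocytes, against 7.35, 7.10 and 7.33 in JNKΔhepa liver and 7.57, 7.73 and 7.29 in WT liver. The hepatocyte genotypes did not overlap and the liver genotypes did. The hepatocyte difference was -0.66 (SE 0.125, 1.58-fold lower, limma adjusted p = 0.0258). Over all genes, 0.473% were lower and 0.367% higher in this comparison. The call did not hold in the fit with replicate number as a block (limma adjusted p = 0.0851), with only the 6 hepatocyte arrays (limma adjusted p = 0.0638), or without WT hepatocytes 1 (limma adjusted p = 0.118), JNKΔhepa hepatocytes 1 (limma adjusted p = 0.0550), 2 (limma adjusted p = 0.0870) or 3 (limma adjusted p = 0.0890).

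Vim, S100a11 and Tagln2 had lower values in JNKΔhepa than in WT hepatocytes on every array but did not pass the test. Their log2 differences were -0.60 for Vim (SE 0.131, limma adjusted p = 0.0554), -0.66 for S100a11 (SE 0.170, limma adjusted p = 0.10) and -0.49 for Tagln2 (SE 0.141, limma adjusted p = 0.150). With Lgals1 and Tmsb10, 5 of the 10 genes had arrays that did not overlap between the genotypes and were lower in JNKΔhepa hepatocytes, against 7.32% of all genes, and after quantile normalisation 4 did, against 6.91%. Vim passed the threshold without WT hepatocytes 2 (limma adjusted p = 0.0230), without JNKΔhepa hepatocytes 1 (limma adjusted p = 0.0467), without JNKΔhepa liver 1 (limma adjusted p = 0.0495) and without WT liver 3 (limma adjusted p = 0.0360). S100a11 passed it without WT hepatocytes 2 (limma adjusted p = 0.0473). At an unadjusted limma p under 0.05, Vim, Lgals1, Tagln2 and S100a11 were lower in JNKΔhepa hepatocytes (4 of 10, against 6.71% of all genes).

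The other 6 genes of the list did not pass the test between the hepatocyte genotypes. The log2 differences were -0.38 for Tubb6, -0.15 for Tuba1a, -0.13 for Tmsb10, -0.04 for Lgals3, 0.04 for S100a6 and 0.09 for Actg1, and their limma adjusted p ran from 0.573 to 0.958. The 95% interval was -0.90 to 0.13 for Tubb6, which leaves its size poorly known, and -0.18 to 0.36 for Actg1.

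**Figure D3:**
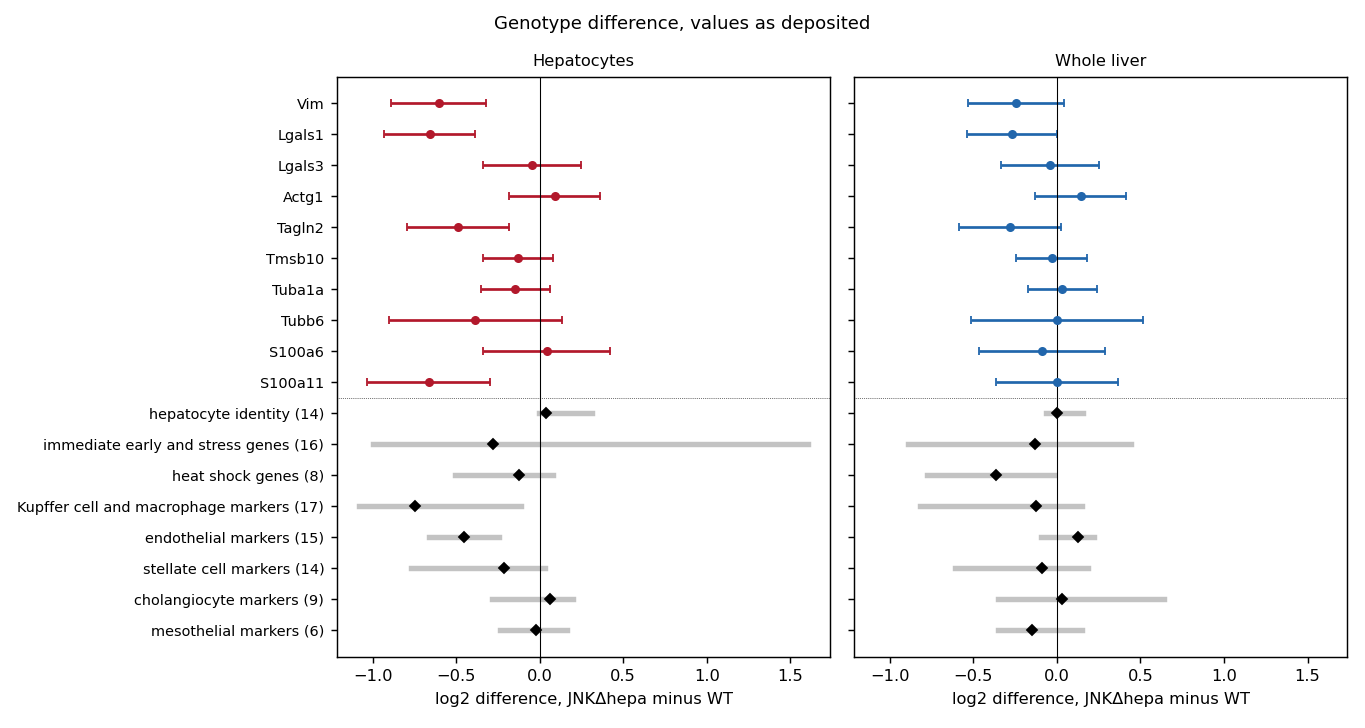
Log2 differences, JNKΔhepa minus WT, in hepatocytes (left) and whole liver (right), from the deposited values. Coloured points are the 10 genes with 95% intervals, black diamonds are list medians and grey bars run from the lowest to the highest gene, with the number of measured genes in brackets. In hepatocytes Lgals1, Vim, S100a11 and Tagln2 lie between -0.66 and -0.49, and the Kupffer cell and macrophage list has its median at -0.75.

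Most markers of macrophages, endothelial cells and stellate cells had lower means in JNKΔhepa than in WT hepatocytes, and few passed the test. In the hepatocyte genotype comparison the median log2 difference was -0.75 over the Kupffer cell and macrophage list, where 17 of 17 were below 0 and 1 passed the test (C1qb, -1.08, limma adjusted p = 0.0225). It was -0.45 over the endothelial list, with 15 of 15 below 0 and 0 passing, and -0.22 over the stellate cell list, with 1 passing (Ecm1, -0.71, limma adjusted p = 0.0100). The hepatocyte identity list had a median of 0.04 and 0 calls. The medians of the macrophage list overlapped between the genotypes, at 5.57, 5.06 and 4.96 in JNKΔhepa hepatocytes and 6.14, 5.40 and 6.16 in WT hepatocytes. Those of the endothelial list did not overlap, at 6.50, 5.99 and 5.86 in JNKΔhepa hepatocytes and 6.82, 6.52 and 6.70 in WT hepatocytes. The stellate cell medians overlapped, at 3.67, 3.42 and 3.53 in JNKΔhepa hepatocytes and 3.83, 3.61 and 3.77 in WT hepatocytes, but the stellate cell sums above did not. WT hepatocytes 2 was the lowest of the WT arrays for the macrophage median, for Vim, for Tagln2 and for S100a11. Among the WT hepatocyte arrays Lgals1 was lowest on WT hepatocytes 3 (6.55), where the macrophage median was highest. The part of non-parenchymal RNA in the differences of Lgals1, Vim, S100a11 and Tagln2 was not tested.

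**Figure D4:**
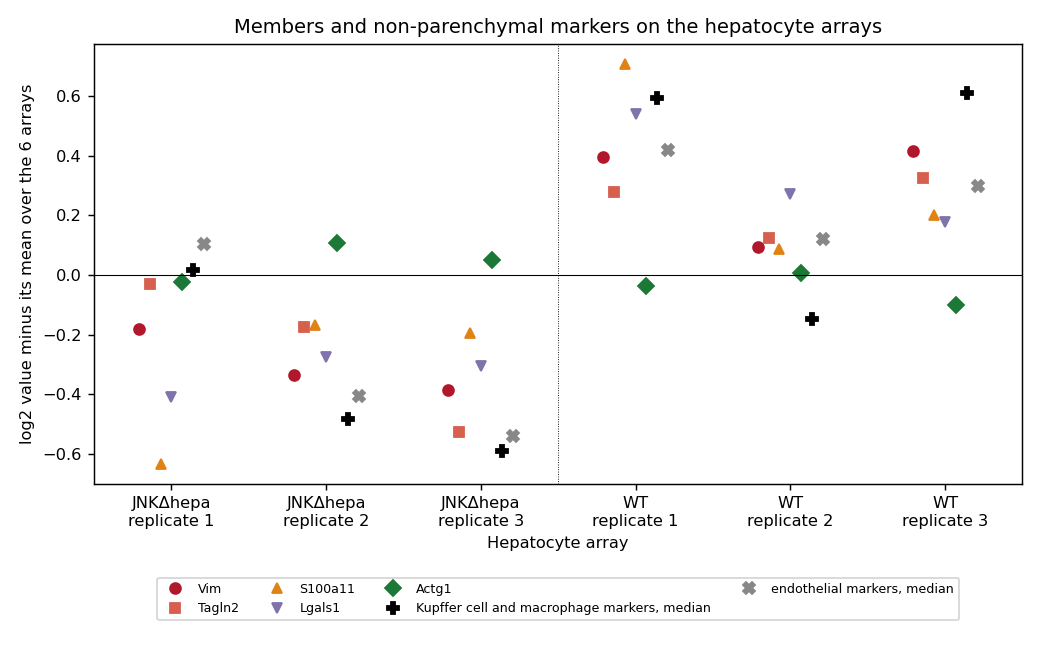
Deposited log2 values of 5 genes, and the median log2 values of the Kupffer cell and macrophage markers and of the endothelial markers, on the 6 hepatocyte arrays, each minus its own mean over these arrays. Vim lies from -0.39 to -0.18 on the JNKΔhepa arrays and from 0.09 to 0.42 on the WT arrays, the macrophage markers reach 0.02 on JNKΔhepa hepatocytes 1 and -0.15 on WT hepatocytes 2, and Actg1 stays between -0.10 and 0.11.

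Within each genotype, the order of the hepatocyte arrays for Vim and Tagln2 matched that of the macrophage median. The orders for S100a11 and Lgals1 did not. These orders were not tested. S100a11 was lowest on JNKΔhepa hepatocytes 1 (4.95), the array on which macrophage and endothelial medians were highest within that genotype. Of the immediate early and stress genes, Myc was higher (1.60, limma adjusted p = 0.0125) and Jun lower (-0.84, limma adjusted p = 0.0135) in JNKΔhepa hepatocytes, and the list median was -0.28. No measured gene of the 6 related family lists passed the test between the hepatocyte genotypes, and 22 of 25 actin-binding and serum response factor target genes were below 0. Of these 25, Myl9, Tagln, Tagln3, Cnn1 and Capg read below the array median on all 6 hepatocyte arrays, so their signs say little. The share of all genes below 0, against which this and the marker counts could be set, was not counted.

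In whole liver none of the 10 genes passed the test between the genotypes, against 0.558% of all genes called higher and 0.367% called lower. At an unadjusted limma p under 0.05 the count was also 0 of 10, against 8.14% of all genes higher and 4.40% lower. After quantile normalisation Lgals1 (-0.32, limma unadjusted p = 0.0276, adjusted p = 0.364) and Tagln2 (-0.36, limma unadjusted p = 0.0262, adjusted p = 0.354) were below it, and the arrays of Tagln2 did not overlap, as for 8.77% of all genes in that direction. The log2 differences ran from -0.28 for Tagln2 to 0.14 for Actg1, with -0.27 for Lgals1 (95% interval -0.54 to 0.00343) and -0.24 for Vim. The value for Actg1 became -0.04 without JNKΔhepa liver 2. The macrophage, endothelial and stellate cell lists had medians of -0.12, 0.12 and -0.09, and 0 of their genes passed. Among the related families, Krt23, a keratin, was higher in JNKΔhepa liver (0.75, limma adjusted p = 0.0102).

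The difference between the hepatocyte and the liver genotype effects, tested as an interaction, passed for 0 of the 10 genes, against 0.0106% of all genes called lower and 0 higher. The largest of the 10 was -0.67 for S100a11 (SE 0.240, limma unadjusted p = 0.0161, adjusted p = 0.596), followed by -0.39 for Lgals1 (SE 0.177, limma unadjusted p = 0.0468, adjusted p = 0.684). At an unadjusted limma p under 0.05 these 2 genes were lower, against 4.57% of all genes, and neither passed after adjustment. The genotype effects of the list were therefore not shown to differ between hepatocytes and liver.

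Within the list, profiles centred on their mean over the 12 deposited arrays fell near one another in pairs: Vim with Tagln2 at a root mean square difference of 0.127 log2 units, Lgals3 with Tmsb10 at 0.149 and Actg1 with Tuba1a at 0.161. Vim and Actg1 were farthest apart, at 1.01. Outside the list, S100a11 was nearest to Filip1l (0.176), Csrp1 (0.184) and Chsy1 (0.188), and Lgals1 to Mapk8 (0.153), whose values are given above, Zfp950 (0.167) and 2210016L21Rik (0.169). Tmsb10 lay nearest to Arvcf (0.110), Gsn (0.118) and Lbh (0.123), where Gsn encodes the actin-severing protein gelsolin. These distances describe the 12 arrays, contain any difference in scaling between the tissues and were not tested.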

How the data were processed

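RNA from 12 samples was hybridised to single-colour whole-transcript arrays after amplification and biotin labelling, per the labels' protocols. The authors deposited a table of log2 values made with RMA (robust multi-array average), per the submitters' processing notes. The log2 scale was read from the range of the values, and neither a software version nor a genome build is named in the sources used here. Array medians differed between the tissues, so the tissues may have been normalised separately. The table held 35556 probe sets, of which 21218 had 1 gene symbol in the platform annotation, 1881 had several and 12457 are unnamed here. Each of 18820 genes was represented by its brightest probe set, taken by the mean over the arrays.

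Group means over all 12 arrays were fitted with limma 3.58.1 (R 4.3.3), with p-values adjusted by Benjamini-Hochberg over 18820 genes and a threshold of 0.05. The fit had 8 residual and 4.76 prior degrees of freedom, and was tested on simulated data. The number of arrays, 3 a group, limits the precision, and a reading below its array's median was treated as dim, a rule chosen after the values were seen. Mice are numbered within their genotype, and the liver and hepatocyte arrays of a mouse share an animal, per the labels. Their deviations from the group means correlated by -0.013 to 0.098.

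The members and the gene lists were chosen with earlier results of these data known. All 10 members are named, with up to 3 genes by smallest passing p from each related or marker list and the 3 nearest profiles of a member, of which a selection is shown. Alternatives were array-median centring, quantile normalisation, the mean of a gene's probe sets, a filter on dim genes, blocks for mouse or replicate number, trend and robust options, fits within a tissue and leaving out each array. Quantile normalisation with a mouse block was added after the data were seen.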

Additional observations from a re-analysis of the deposited data

How the results depend on the processing

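The counts below are of the 10 genes that passed the threshold. They are given without the share of all genes called in each alternative, so they show only whether calls were kept. Centring each array on its median left 5 lower in hepatocytes than in liver on average, 6 in JNKΔhepa mice and 5 in WT mice. Quantile normalisation, alone or with the replicate block for the mouse (chosen after the data were seen), left 6 in JNKΔhepa mice and 5 in WT mice, against 10 in each as deposited. Of the hepatocyte genotype comparison, the filter on dim genes and the trend and robust options each gave 2 (Vim beside Lgals1) in place of 1, and the replicate-number block within the tissue and the fit on the 6 hepatocyte arrays each gave 0. Same-numbered mice of the 2 genotypes share only a number, with correlations of their deviations of 0.112, 0.081 and -0.023 in hepatocytes. Leaving out each array in turn gave 0 to 3. The mouse block changed no other call than that of Tubb6 in WT mice (limma adjusted p = 0.0556). Directions turned as follows, on the log2 scale. For the liver genotype effect, S100a11 was -0.015 with median centring, -0.033 with quantile normalisation and -0.057 with the mean of probe sets, and Tuba1a -0.035 with quantile normalisation. For the interaction, Lgals3 was 0.034 with median centring and 0.075 with quantile normalisation, alone or with the mouse block. For hepatocytes minus liver with median centring, Actg1 was 0.13, Tubb6 0.096 and Tuba1a 0.14 on average, Actg1 0.12 and Tuba1a 0.070 in JNKΔhepa mice, and Lgals1 0.0083, Actg1 0.13, Tubb6 0.27 and Tuba1a 0.21 in WT mice. With quantile normalisation, alone or with the mouse block, Tubb6 was 0.011 and Tuba1a 0.016 on average, and Tubb6 0.16 and Tuba1a 0.081 in WT mice. Leaving out each array in turn gave liver effects of -0.128 to 0.0894 for Lgals3, -0.066 to 0.11 for S100a11, -0.14 to 0.20 for Tubb6, -0.039 to 0.25 for Actg1, -0.083 to 0.068 for Tmsb10 and -0.18 to 0.057 for S100a6. Hepatocyte effects were -0.16 to 0.050 for Lgals3 and -0.17 to 0.17 for S100a6, and interactions -0.13 to 0.088 for Lgals3, -0.16 to 0.13 for Actg1 and -0.085 to 0.26 for S100a6. The cause was not tested. The table holds no detection calls, so low readings such as those of S100a6 cannot be set against background.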
